A study of Mus musculus with 6 samples.

Results

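The genes described here encode collagens and small leucine-rich proteoglycans, the fibre-forming and fibre-coating proteins of the extracellular matrix. They were taken by name from a table of read counts in mouse pancreatic islets: every gene named COL, a number, A and a number, together with DCN, LUM, KERA, BGN, FMOD, OGN, ASPN, PRELP, EPYC and OMD. The rule found 45 of the 13702 genes in the table, 35 collagens and 10 proteoglycans. RNA came from islets of 12-week-old mice, with 3 libraries of β-PCKO mice, in which β-cells lack pyruvate carboxylase (labelled KO), and 3 libraries of wild-type littermates (WT). The RNA was freed of ribosomal RNA and read as paired, strand-marked libraries. The labels do not name the strain, the driver of the deletion, or whether a library held 1 animal or a pool, so a p-value here measures library-to-library spread, whose source may be technical. The genes were selected on their raw counts in these same 6 libraries, so their levels are a description and carry no test of their own.

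Collagens are trimers of chains wound into a triple helix. Fibrillar types form the banded fibres of connective tissue, fibril-associated types sit on the fibre surface, type VI forms beaded filaments around cells, and type IV forms the sheet of basement membranes. Small leucine-rich proteoglycans bind collagen fibres and set their diameter and spacing, and several also hold growth factors. In the pancreas these genes belong chiefly to fibroblasts, stellate cells and other cells of the stroma and capsule, and β-cells are not known as a main source. In RNA from whole islets, fewer cells of a type and less RNA per cell cannot be told apart.

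The libraries were shallow and unequal. Totals ran from 35906 to 377876 counts in WT and from 224898 to 225561 in KO, so that 1 count was worth 27.9 CPM (counts scaled to a common library total) in WT replicate 1 and 2.65 CPM in WT replicate 2. A count of 0 allows up to 3 counts, or 83.6 CPM in WT replicate 1, 7.94 in WT replicate 2, 22.1 in WT replicate 3 and 4.44 over the KO libraries together. The table names genes by human symbols and identifiers although the samples are mouse, and 44 of the 45 symbols also name a gene in the RefSeq mouse table, COL21A1 being the exception. WT replicate 2 stood apart in its squamous epithelium genes, with 14.2% of all counts on 13 listed markers against 0.0289% to 0.0849% in the other libraries. Of the islet hormone genes PPY had 1 count over all libraries, and INS, GCG and SST were not analysed here, so the islet label was not checked by the main hormones. PAX6, an endocrine transcription factor gene, had counts in all 6 libraries, with 98, 33 and 52 in WT and 413, 397 and 452 in KO. In CPM this was 1067 ± 1447 in WT and 1868 ± 127 in KO (SD, n = 3). NEUROD1 and MAFA, given below, also had counts in every library. Other endocrine genes had few: CHGA and CHGB had 1 count each, in WT replicate 2, and PCSK1 had 6, all in WT replicate 3. NKX6-1 had 1 in WT replicate 2 and 1 in KO replicate 2, and ISL1 had 0, 6 and 0 in WT and 7, 9 and 5 in KO.

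WT replicate 3 held most of the matrix reads of the WT group. Of the counts of WT replicates 1, 2 and 3, all 45 genes together took 0.420%, 0.153% and 1.92%. They took 0.533%, 0.524% and 0.518% of those of KO replicates 1, 2 and 3. Values below keep this order of libraries. The KO libraries lay between WT replicates 1 and 3. Collagens took 0.329% (95% exact interval 0.272 to 0.393), 0.117% (0.107 to 0.129) and 1.24% (1.18 to 1.30) in WT, and 0.240%, 0.247% and 0.234% in KO. Proteoglycans took 0.0919% (0.0633 to 0.129), 0.0357% (0.0300 to 0.0423) and 0.685% (0.642 to 0.730) in WT, and 0.293%, 0.277% and 0.284% in KO. As group means the collagen share was 0.562% ± 0.596 (SD, n = 3) in WT and 0.240% ± 0.00613 in KO, and the proteoglycan share 0.271% ± 0.360 in WT and 0.285% ± 0.00795 in KO. Both WT spreads exceeded the WT means themselves, and without WT replicate 3 the WT means were 0.223% for collagens and 0.0638% for proteoglycans.

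**Figure D1:**
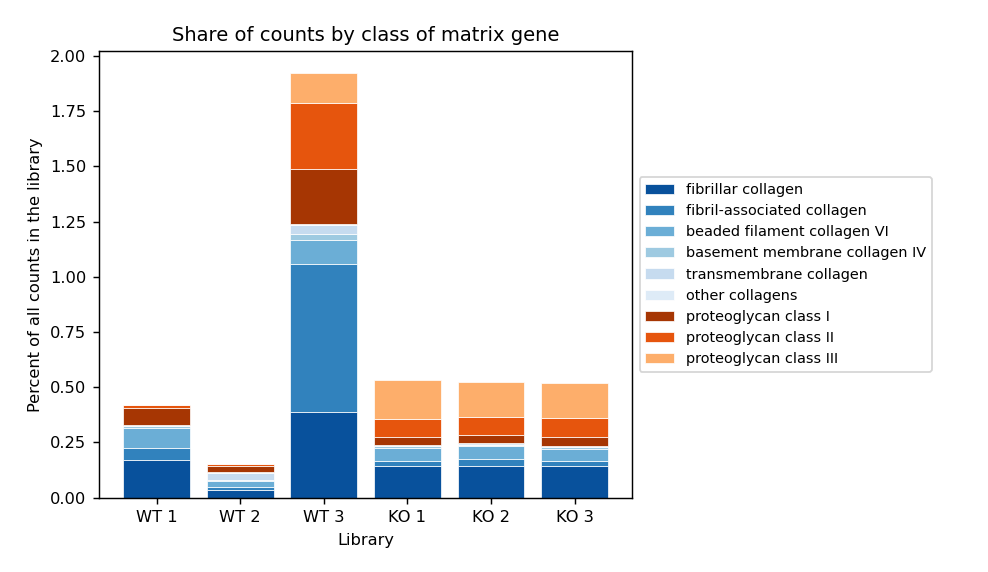
Percent of all counts in each library (y axis) taken by classes of collagen and proteoglycan genes, stacked, for 3 WT and 3 KO libraries (x axis). WT 3 reached 1.92% against 0.153% to 0.533% in the other libraries, with fibril-associated collagens its thickest layer, while class III proteoglycans took 0.157% to 0.179% in each KO library.

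A usable depth was reached by 17 of the 45 genes, which had at least 20 counts in a library. These were 11 collagens and 6 proteoglycans, and they carried all but 340 of the 6882 counts on the 45 genes. WT replicate 2 held a count of 41 of the 45 genes and WT replicate 1 of 16, with 26 to 29 in the KO libraries. By share of counts WT replicate 3 was the highest library for 12 of the 17 genes. Of all 3938 genes with that depth, 31.2% were highest there. The KO libraries all lay above the WT libraries for 2 of the 17, OGN and OMD, against 14.6% of genes of that depth, and all below for none (0), against 10.7%. Because the genes were picked with these counts in view, nothing is read from those shares.

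**Figure D2:**
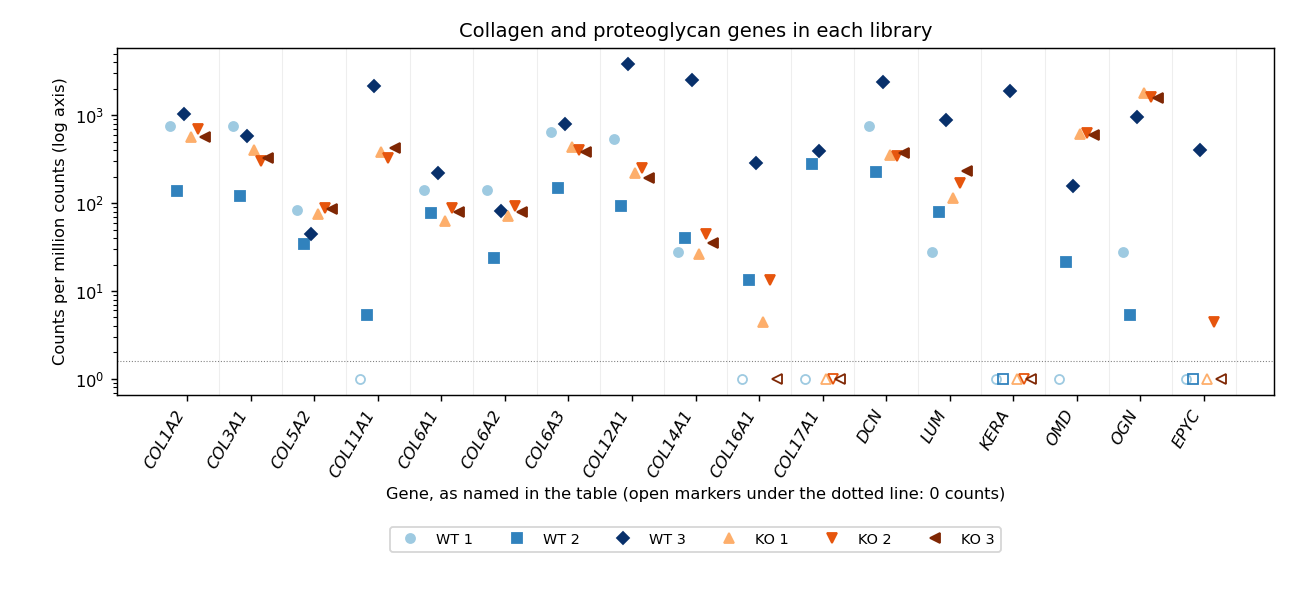
CPM (y axis, log scale) of the 17 genes with at least 20 counts in a library (x axis), with 1 marker per library and open markers under the dotted line for 0 counts. WT 3 is the top marker for 12 genes, and KERA has a filled marker in WT 3 alone. The 3 KO markers sit close together for most genes, but span 115 to 231 CPM for LUM and 0 to 13.3 CPM for COL16A1.

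For the main fibrillar chains, the KO libraries fell inside the WT range. COL1A2 (ENSG00000164692), which encodes the α2 chain of type I collagen, the main fibre of connective tissue, had 27, 52 and 141 counts in WT and 127, 155 and 126 in KO. This amounts to 752, 138 and 1041 CPM in WT and 563, 689 and 560 in KO. COL3A1 (ENSG00000168542), the type III chain that joins type I in elastic tissues, had 27, 45 and 79 counts in WT and 90, 67 and 74 in KO, or 485 ± 328 and 342 ± 51.9 CPM (SD, n = 3). Its lowest library, WT replicate 2, and its highest, WT replicate 1, were both wild type. COL5A2, a chain of type V collagen, which helps start fibres, had 3, 13 and 6 counts in WT and 17, 20 and 19 in KO. In CPM its highest WT library, replicate 1 with 83.6, lay within the KO values of 75.4 to 88.9.

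COL11A1 (ENSG00000060718), a minor fibrillar chain best known from cartilage, set 1 WT library against the other WT libraries. It had 0, 2 and 289 counts in WT and 85, 74 and 96 in KO. WT replicate 3 stood at 2134 CPM, KO at 377 ± 49.0 CPM, and WT replicate 2 at 5.29 CPM. KO therefore lay above WT replicate 2 and below WT replicate 3. The 0 in WT replicate 1 allows up to 83.6 CPM, which is also below the lowest KO library at 329 CPM. The other 6 fibrillar genes were thin: COL5A1 had 28 counts over all libraries, COL27A1 12, and COL2A1, COL11A2, COL24A1 and COL5A3 between 1 and 5.

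For 3 chains of type VI collagen WT replicate 2 was the lowest WT library in CPM, and the groups overlapped. COL6A3 (ENSG00000163359), the largest chain of the beaded filament, had 23, 56 and 108 counts in WT and 97, 91 and 85 in KO, or 641, 148 and 797 CPM in WT and 378 to 430 in KO. COL6A1 had 5, 29 and 30 counts in WT and 14, 20 and 18 in KO, and COL6A2 had 5, 9 and 11 in WT and 16, 21 and 18 in KO. The highest WT library was replicate 3 for COL6A1 and COL6A3 and replicate 1 for COL6A2. COL6A6 had 2 counts, both in WT replicate 2.

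Type IV collagen, the scaffold of the basement membranes that surround islet capillaries, was near the limit of detection. COL4A1, one of the ubiquitous chains, had 0, 11 and 14 counts in WT and 10, 5 and 2 in KO, and COL4A2, its partner, had 13 in all. COL4A3, COL4A4 and COL4A5, chains known from kidney and other specialised basement membranes, had 13, 7 and 36. The 5 genes together took 0.00578% to 0.00887% of counts in KO and 0.00635% to 0.0266% in WT.

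Fibril-associated collagens were high in WT replicate 3, where the 8 genes of this class took 0.669% (0.626 to 0.714) of counts. They took 0.0557% in WT replicate 1, 0.0164% in WT replicate 2 and 0.0245% to 0.0311% in KO. COL12A1 (ENSG00000111799), a fibre-surface collagen of dense connective tissue such as tendon, had 19, 35 and 522 counts in WT and 50, 57 and 43 in KO. That is 529, 92.6 and 3854 CPM in WT and 191 to 253 in KO, inside the WT range. COL14A1 (ENSG00000187955), a close relative found in skin and tendon, had 1, 15 and 339 counts in WT and 6, 10 and 8 in KO. Its WT replicate 3 value of 2503 CPM stood against 26.6 to 44.4 CPM in the other 5 libraries. COL16A1, which sits on thin fibrils, had 0, 5 and 39 counts in WT and 1, 3 and 0 in KO. The remaining 5, COL9A2, COL9A3, COL19A1, COL21A1 and COL22A1, had 1 to 6 counts each.

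COL17A1 (ENSG00000065618), a transmembrane collagen of hemidesmosomes, the rivets between stratified epithelium and its basement membrane, had 0, 105 and 53 counts in WT and 0 in every KO library. In CPM WT replicates 2 and 3 stood at 278 and 391, against at most 4.44 over the KO libraries, while the 0 in WT replicate 1 allows up to 83.6. COL7A1, the collagen of the anchoring fibrils under the same epithelia, had 14 counts, all in WT replicate 2. LAMA3 and LAMB3, which encode laminin chains of epithelial basement membranes, were also counted mostly there. LAMA3 had 1, 35 and 4 counts in WT and LAMB3 0, 14 and 0, with 0 in each KO library. WT replicate 2 is the library with 14.2% of its counts on squamous markers. The part of that epithelium in the COL17A1 counts was not tested, and WT replicate 3, with 53 counts, had 0.0849% on those markers.

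COL8A1, a short chain of network-forming type VIII collagen known from vessel walls and from the membrane behind the cornea, had 0, 2 and 0 counts in WT and 14, 13 and 11 in KO. Summed counts per total were 15.4 times higher in KO (exact interval 3.99 to 132, counting error alone). The 0 in WT replicate 1 allows up to 83.6 CPM, so it does not tell that library from the KO level of 48.9 to 62.1 CPM. COL8A2 had 5 counts in WT replicate 3 and 2 in KO. COL15A1, COL18A1, COL23A1 and COL28A1 had 1 to 11 counts each over all libraries.

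Among the proteoglycans, DCN (ENSG00000011465), which encodes decorin, the prototype that coats type I fibres and binds TGF-β, was detected throughout. It had 27, 86 and 321 counts in WT and 79, 77 and 83 in KO, or 752, 228 and 2370 CPM in WT and 342 to 369 in KO. LUM (ENSG00000139329), lumican, a keratan sulfate proteoglycan that spaces collagen fibres in the cornea and in many connective tissues, had 1, 30 and 120 counts in WT and 26, 38 and 52 in KO. Its KO values of 115 to 231 CPM lay between those of WT replicate 2 (79.4) and WT replicate 3 (886). Both genes were thus highest in WT replicate 3, and the groups overlapped.

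KERA (ENSG00000139330), keratocan, a proteoglycan best known from the cornea, had 0, 0 and 256 counts in WT and 0 in each KO library. WT replicate 3 stood at 1890 CPM (exact interval 1666 to 2136). EPYC (ENSG00000083782), epiphycan, a proteoglycan of growth cartilage, had 0, 0 and 54 counts in WT and 0, 1 and 0 in KO, with 399 CPM in WT replicate 3. Both genes were held by that library, and with 4 genes outside the family, IGF1, CCDC102B, ITGA8 and COMP, they were among the 8 genes of the table that had at least 50 counts in WT replicate 3 and at least 95% of all their counts there. The remaining 2 were MCOLN3 and MMP3. KERA had the highest count of the 8. IGF1, a growth factor gene, had 208 of 218 counts there, COMP, a matrix protein of cartilage and tendon, 77 of 81, and MMP3, the protease stromelysin, 51 of 51. WT replicate 2 held 129 such genes among 1294 with at least 50 counts there, against 8 among 611 in WT replicate 3. None (0) of the 129 was a collagen or small leucine-rich proteoglycan of the rule. Of those, 4 had that depth in WT replicate 2 and 12 in WT replicate 3. WT replicate 1, with 126 genes of that depth, and the KO libraries held 0. The KO libraries were much alike, so a gene could hardly be held by 1 of them.

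The pair OGN and OMD had the opposite arrangement. OGN (ENSG00000106809), osteoglycin or mimecan, a proteoglycan first described in bone and widespread in fibrous tissue, had 1, 2 and 129 counts in WT and 403, 358 and 354 in KO. In CPM this was 27.9, 5.29 and 952 in WT and 1787, 1591 and 1574 in KO, and the groups did not overlap. OMD (ENSG00000127083), osteomodulin, a keratan sulfate proteoglycan of mineralised tissue, had 0, 8 and 21 counts in WT and 139, 141 and 134 in KO. It stood at 0, 21.2 and 155 CPM in WT and 596 to 626 in KO, again without overlap. WT replicate 3, the highest WT library for both, reached 952 of 1574 CPM for OGN and 155 of 596 CPM for OMD when set against the lowest KO library. Islet endocrine markers summed to 0.329% to 0.377% of KO counts and to 0.343%, 0.0169% and 0.0657% of WT counts. PAX6 made up 98 of the 123 such counts in WT replicate 1. The part of these markers in the OGN and OMD counts was not tested. ASPN, asporin, which binds collagen and calcium, had 0, 2 and 11 counts in WT and 3, 4 and 8 in KO. BGN, biglycan, FMOD, fibromodulin, and PRELP had 14, 17 and 19 counts over all libraries.

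Of these proteoglycan genes, 7 lie in 2 runs of neighbours in the mouse genome, while Prelp and Fmod are neighbours on chromosome 1 and Bgn lies on chromosome X. In RefSeq's GRCm38.p6 table the order of coding genes is Dcn, Lum, Kera, Epyc on chromosome 10 and Ecm2, Aspn, Omd, Ogn on chromosome 13. Along the chromosome 10 run all 4 genes were highest in WT replicate 3. Along the chromosome 13 run neighbours differed in which library was highest. ECM2, which encodes a leucine-rich matrix protein outside the rule, had 0, 1 and 122 counts in WT and 6, 12 and 10 in KO, so it was highest in WT replicate 3. ASPN had its highest CPM there too, at 81.2, though the 0 in WT replicate 1 allows up to 83.6. OMD and OGN were highest in KO. 

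**Figure D3:**
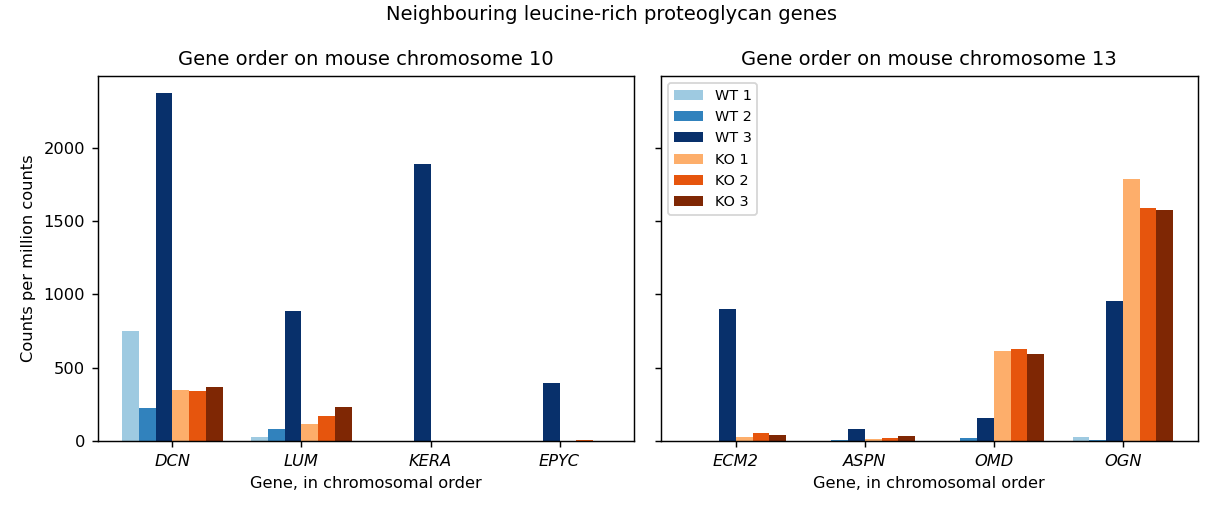
CPM (y axis) of 4 neighbouring genes on mouse chromosome 10 and 4 on chromosome 13 (x axis, in chromosomal order), with 1 bar per library. WT 3 is the tallest bar for DCN, LUM, KERA, EPYC, ECM2 and ASPN, and the 3 KO bars are the tallest for OMD and OGN.

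The promoters of the neighbours whose counts parted from the rest are shown to place these genes: Ogn and Omd, which were highest in KO, and Kera and Epyc, which WT replicate 3 held. Each is the RefSeq window of GRCm38.p6 from 250 bases before to 50 after a start site, on the plus strand, 5′ to 3′. Capitals mark the TATA box letters TATAAA and the CCAAT box letters, both searched on either strand, where matches may overlap. The Ogn window is chr13:49607765-49608064, Omd chr13:49582212-49582511, Kera chr10:97606955-97607254, and Epyc, at the first of its 2 listed start sites, chr10:97643818-97644117.
Ogn: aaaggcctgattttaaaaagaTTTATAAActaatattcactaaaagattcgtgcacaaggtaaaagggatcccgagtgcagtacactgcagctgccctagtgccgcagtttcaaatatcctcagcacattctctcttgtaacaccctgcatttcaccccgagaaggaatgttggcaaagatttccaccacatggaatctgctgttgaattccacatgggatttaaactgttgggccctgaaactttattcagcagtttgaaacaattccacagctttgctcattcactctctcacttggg
Omd: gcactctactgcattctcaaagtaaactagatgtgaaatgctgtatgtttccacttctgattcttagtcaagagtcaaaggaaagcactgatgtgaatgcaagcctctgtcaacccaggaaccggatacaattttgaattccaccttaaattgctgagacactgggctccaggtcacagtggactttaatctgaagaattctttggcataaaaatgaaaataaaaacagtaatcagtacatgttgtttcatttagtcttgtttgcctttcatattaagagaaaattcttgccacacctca
Kera: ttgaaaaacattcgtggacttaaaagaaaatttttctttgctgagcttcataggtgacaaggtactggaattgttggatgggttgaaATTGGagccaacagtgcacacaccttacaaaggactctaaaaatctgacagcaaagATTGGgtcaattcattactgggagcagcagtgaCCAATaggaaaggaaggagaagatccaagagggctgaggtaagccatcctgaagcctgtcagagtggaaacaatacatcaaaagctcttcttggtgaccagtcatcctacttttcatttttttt
Epyc: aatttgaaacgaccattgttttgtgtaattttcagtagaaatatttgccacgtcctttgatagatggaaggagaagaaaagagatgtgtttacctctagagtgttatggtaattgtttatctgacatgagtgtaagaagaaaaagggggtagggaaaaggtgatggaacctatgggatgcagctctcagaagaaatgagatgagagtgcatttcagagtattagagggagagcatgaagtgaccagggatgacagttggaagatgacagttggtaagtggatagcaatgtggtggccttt
Ogn held TATAAA on both strands in 1 overlapping stretch, 227 and 229 bases before the start site, and Kera held CCAAT 74, 107 and 163 bases before it, once on the plus and at the other places on the minus strand. RefSeq's span of Kera begins at 97606962, so most of the Kera window lies inside the annotated gene. No match to either motif (0) was found in the Omd and Epyc windows. TATAAA was in 13.6% and CCAAT in 37.4% of all 32851 windows of this length, and in 13.2% and 36.8% of the 38 windows of 35 genes described here. A match is a description of letters, and these windows were not tied to the counts.

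Ratios between genes within a library do not depend on its total, and they separated the libraries by composition. The ratio of COL6A3 to COL1A2 counts was 0.852, 1.08 and 0.766 in WT and 0.764, 0.587 and 0.675 in KO, a narrow band with overlapping exact intervals. The ratio of COL12A1 to COL1A2 was 3.70 (3.07 to 4.49) in WT replicate 3. It was 0.704 in WT replicate 1, 0.673 in WT replicate 2 and 0.341 to 0.394 in KO. For COL14A1 over COL1A2 it was 2.40 (1.97 to 2.95) in WT replicate 3 and 0.0370 to 0.288 elsewhere. The ratio of OGN to DCN was 5.10, 4.65 and 4.27 in KO, and 0.0370 (0.000905 to 0.225), 0.0233 (0.00277 to 0.0866) and 0.402 (0.325 to 0.494) in WT. The intervals cover counting error and not the spread between libraries. The OGN to OMD ratio was 2.90, 2.54 and 2.64 in KO, 6.14 (3.85 to 10.3) in WT replicate 3 and 0.250 (0.0259 to 1.25) in WT replicate 2.

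**Figure D4:**
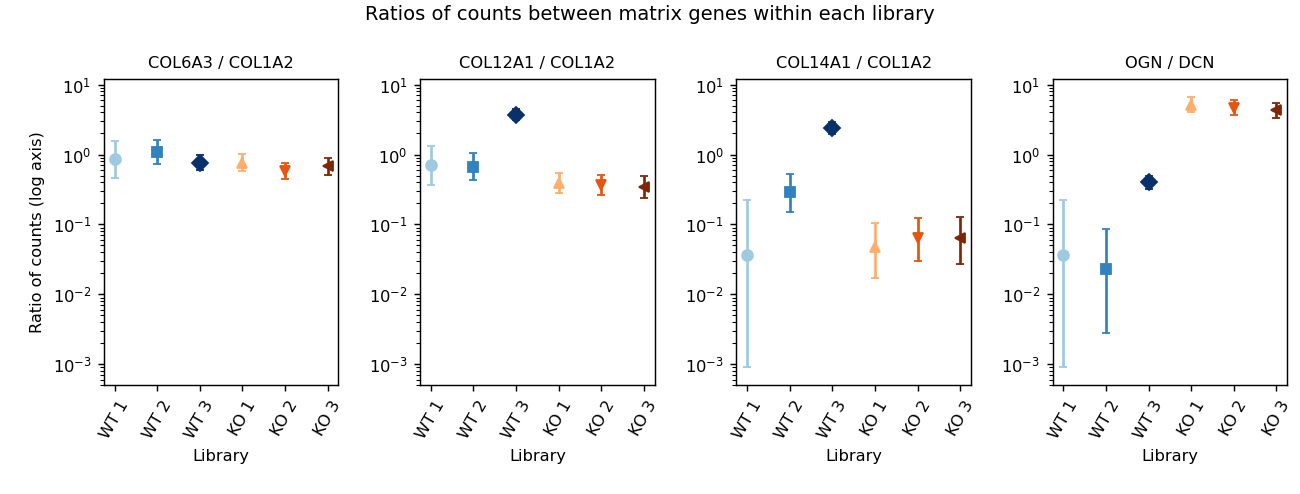
Ratio of counts between 2 matrix genes (y axis, log scale) in each of the 6 libraries (x axis), with exact 95% intervals for counting error as bars. COL6A3 to COL1A2 stays between 0.587 and 1.08, COL12A1 and COL14A1 to COL1A2 peak in WT 3, and OGN to DCN is 4.27 to 5.10 in KO and at most 0.402 in WT.

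The KO libraries were nearly interchangeable for these genes. For the 13 genes whose counts in a KO pair reached 20, chi-square per gene was 0.882 to 1.27, where 1 is sampling noise. Between WT libraries it was 34.4 over 8 such genes for replicates 1 and 2, 32.0 over 15 for replicates 1 and 3 and 311 over 18 for replicates 2 and 3. Over all genes the WT pairs gave 18.1 to 35.4, and the KO pairs 1.96 to 2.02. The KO libraries were kept as 3 samples because they are labelled so. These values do not tell separate animals from splits of 1 sample. Their small spread does not show how much islets of different KO animals vary.

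In the fit across all genes, 13 of the 45 were deep enough to enter and 2 were called higher in KO at an adjusted p of 0.05 (edgeR), COL8A1 and OMD. COL8A1 is named here for that call, after its values were seen. None (0) was called lower in edgeR or DESeq2, while 2 were lower at an unadjusted p under 0.05 in edgeR. Of the 2560 genes tested, 8.05% were called, with 5.04% of those tested higher in KO and 3.01% lower. The median log2 fold change, KO minus WT, was −0.38 over the 13 and −0.14 over all genes. The contrast is the one whose counts were in view when the genes were chosen, and nothing is read from the count. The count moved when single libraries were left out, and so did that of all genes. Without WT replicate 2 it was 0 of 14 tested, against 11 of 2780 over all genes. Without KO replicate 1, 2 or 3 it was 0 of 15, 15 and 16 tested. Over all genes those settings gave 3 of 3345, 4 of 3345 and 16 of 3335. Without WT replicate 3 it was 3, COL11A1, OGN and OMD, of 13 tested, against 7.09% of all genes. Without WT replicate 1, COL8A1 and OMD were called higher and COL14A1 and COL17A1 lower, 4 of 15 tested, while 46.6% of all genes tested were called. Against WT replicate 1 alone, COL11A1, OGN and OMD were called higher and COL3A1, COL12A1 and DCN lower, 6 of 15 tested against 26.2% of all genes. That WT arm is 1 library of 35906 counts, assumed to vary like the KO libraries.

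Genes that build, bind and cut collagen, which the naming rule leaves out, had 0 genes called by edgeR. Of 32 collagen synthesis and processing enzymes 30 were listed and 5 tested, with 0 called in either direction and 1 at an unadjusted p under 0.05. P4HB, a subunit of the enzyme that hydroxylates collagen prolines, had 5, 160 and 20 counts in WT and 16, 6 and 24 in KO (log2 change of −2.25 ± 0.84 SE, KO minus WT, adjusted p 0.122 in edgeR). Its high WT library was replicate 2, the one with squamous genes. LOX, lysyl oxidase, which cross-links collagen, had 6, 12 and 141 counts in WT and 31, 39 and 18 in KO (−1.59 ± 0.94 SE, adjusted p 0.277 in edgeR). The log2 value of LOX was 0.61 without WT replicate 3, its high library. MIA3, which helps export procollagen from the endoplasmic reticulum, and PLOD2, a lysyl hydroxylase, had adjusted p of 0.408 and 0.755 in edgeR. MIA3 had 0, 44 and 94 counts in WT and 32, 25 and 26 in KO, and PLOD2 2, 31 and 80 and 48, 31 and 51. P4HA1, the catalytic partner of P4HB, was too thin in most libraries to be tested, with 0, 16 and 122 counts in WT and 6 to 7 in KO.

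Of 20 collagen receptors and degrading proteases 14 were listed and 7 tested. None (0) was called in edgeR or DESeq2, and 0 had an unadjusted p under 0.05 in edgeR. TIMP1, an inhibitor of matrix metalloproteinases, had 2, 3 and 2 counts in WT and 14, 9 and 14 in KO (log2 change of 1.52 ± 0.70 SE, adjusted p 0.187 in edgeR, and 0.0190 to 1.00 over alternatives). TIMP2, its relative, had 8, 13 and 18 counts in WT and 79, 35 and 57 in KO (1.06 ± 0.69 SE, adjusted p 0.319 in edgeR, and 0.0260 to 1.00 over alternatives). Both passed without WT replicate 1 (adjusted p 0.0190 and 0.0260 in edgeR), a setting in which 46.6% of all genes tested were called. ITGB1, the β1 integrin shared by the collagen-binding integrins, had an adjusted p of 0.194 in edgeR, and TIMP3 one of 0.452. The log2 change of TIMP3 was −0.69, and −1.30 against WT replicate 1 alone. MMP3 had 51 counts in WT replicate 3 and 0 elsewhere, the arrangement of KERA.

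Of 36 other matrix genes 34 were listed and 14 tested, and edgeR called none (0) of them and gave 0 an unadjusted p under 0.05. DESeq2 called 2 lower, COMP and LAMA3, whose counts are given above and which edgeR's filter had left out. TNC, tenascin-C, had 5, 26 and 17 counts in WT and 7, 13 and 11 in KO (log2 change of −1.35 ± 0.61 SE, adjusted p 0.179 in edgeR). VCAN, versican, a large proteoglycan of loose matrix, had 13, 41 and 28 counts in WT and 95, 105 and 138 in KO (1.12 ± 0.51 SE, adjusted p 0.184 in edgeR, and 0.00620 to 1.00 over alternatives). It passed without WT replicate 1 (adjusted p 0.00620 in edgeR), a setting in which 46.6% of all genes tested were called. THBS1 and LAMB1, encoding thrombospondin-1 and a laminin chain, had adjusted p of 0.205 and 0.293 in edgeR. FN1, fibronectin, had 100, 160 and 356 counts in WT and 455, 437 and 462 in KO, or 1946 ± 1321 and 2004 ± 57.4 CPM (SD, n = 3). MGP, an inhibitor of calcification made by cartilage and vessel walls, had 0, 1 and 151 counts in WT and 4, 4 and 6 in KO.

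Markers of other cells were summed as shares of counts, and few of their genes were deep enough to be tested. Fibroblast and stellate markers, with 13 of 15 listed, made up 0.0390%, 0.0159% and 0.0864% of WT counts and 0.0404% to 0.0578% of KO counts. PDGFRA, a fibroblast marker, had 5, 19 and 3 counts in WT and 12, 12 and 14 in KO. RGS5, a pericyte marker on the same list, had 0, 18 and 64 of the list's 14, 60 and 117 counts in WT. In KO it had 42, 43 and 61 of 99, 91 and 130. Tendon and cartilage markers, with 8 of 14 listed, took 0.0694% in WT replicate 3 and 0.000445% to 0.00557% in the remaining libraries, with COMP 77 of the 94 counts in WT replicate 3. FMOD on that list is one of the genes of the rule, and COMP also stands among the matrix genes. Cornea and sclera markers, with 5 of 10 listed, took 0.172% in WT replicate 3, 0.0778% in WT replicate 2, 0.00279% in WT replicate 1 and 0.0156% to 0.0200% in KO. Of these ALDH1A1 had 192 of the 233 counts in WT replicate 3 and 238 of the 294 in WT replicate 2. FOXC1, a transcription factor gene of mesenchyme, had 0, 2 and 7 counts in WT and 37, 33 and 38 in KO. Endothelial markers (7 of 12 listed) took 0.00133% to 0.00177% in KO and 0.00279% to 0.00886% in WT, Schwann markers (8 of 10 listed) 0.0191% to 0.0226% in KO and 0.00836% to 0.0191% in WT, and the 1 of 13 acinar markers that was listed had 1 count in all. Islet endocrine markers (9 of 19 listed) took 0.343%, 0.0169% and 0.0657% in WT and 0.377%, 0.329% and 0.361% in KO. By this sum WT replicates 2 and 3 lay below the KO libraries and WT replicate 1 within them. PAX6 made up 98 of the 123 counts in WT replicate 1, and 413, 397 and 452 of 851, 740 and 812 in KO. By share of all counts PAX6 in WT replicate 1 lay above every KO library, and NEUROD1 and MAFA lay below. Of the 3 endocrine genes tested, edgeR called NEUROD1, an endocrine transcription factor gene, higher in KO. It had 9, 16 and 15 counts in WT and 178, 143 and 128 in KO (log2 change of 2.41 ± 0.60 SE, adjusted p 0.0450 in edgeR, and 0.00226 to 0.626 over alternatives). MAFA, a β-cell transcription factor gene, had 16, 5 and 16 counts in WT and 253, 190 and 227 in KO, with an adjusted p of 0.0990 in edgeR (0.00389 to 0.581 over alternatives). The part of any of these cells in the matrix counts was not tested.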

How the data were processed

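The counts per gene were used as the authors deposited them, without normalization per the file headers. The submitters' processing notes list build mm10 and, without roles, edgeR 3.16.5, HTSeq 0.9.1, HISAT2 2.0.4 and cutadapt 1.9.3. Nothing used here says how mouse reads came to human gene names, so a mouse gene whose reads reach no such name has no value. A second block of 6 columns with the same library names was not used, and 1 row without an identifier stayed out of every total.

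CPM are counts divided by a library's total and rescaled. Members and lists were chosen with earlier results of these data known. The fit used edgeR 4.0.16 in R 4.3.3 on all libraries and genes: TMM scaling, filterByExpr, a two-sided quasi-likelihood F test on genotype, Benjamini-Hochberg adjustment, threshold 0.05, tried on simulated counts beforehand. Log2 changes run from WT to KO, their SE taken from the F statistic. Intervals are exact (Clopper-Pearson, 95%). Intervals and floors (3 counts for a 0) cover counting error only. Genes with at least 20 counts in any 1 library are described singly. In each of 3 lists of related genes, those called, or up to 4 with the smallest p, are named; others were added after their values were seen. Alternatives were DESeq2 1.42.0, its size factors, no filter, the replicate number as a block, each library left out and other denominators.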

Additional observations from a re-analysis of the deposited data

How the results depend on the processing

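The number of genes called over the whole table was 206 and moved with most settings: 439 without a low-count filter, 137 with the replicate number as a block, 3 to 1527 with 1 library left out, 766 against WT replicate 1 alone and 0 with the KO libraries summed to 1 (edgeR, 301 genes at an unadjusted p under 0.05). The last 2 settings were chosen after seeing the data. Of the collagens and small leucine-rich proteoglycans, 2 of 13 tested were called higher, COL8A1 and OMD, against 129 of 2560 over all genes. With 1 library left out it was 0 to 3. The 3 came without WT replicate 3, where 122 of 2794 genes were called higher. With DESeq2 size factors it was COL8A1 alone, and with DESeq2 it was OMD alone. DESeq2 size factors moved the median log2 change of all genes from −0.14 to −0.26. None (0) was called lower, against 0 to 2 with 1 library left out. The 2 came without WT replicate 1, where 711 of 3279 genes were called lower. Without a filter 4 of 45 were called lower (KERA, EPYC, COL14A1 and COL17A1) and 3 higher (COL8A1, OGN and OMD). Over all genes that setting called 218 of 13702 lower and 221 higher. KERA, EPYC and COL14A1 had 100%, 98.2% and 89.4% of their counts in WT replicate 3. The cause of these moves was not tested.

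Whether replicate numbers pair the libraries was not settled. Deviations of same-numbered libraries from their group means correlated at −0.0022, −0.015 and 0.019, and WT replicate 1 correlated best with KO replicate 3. The KO libraries differed little among themselves (chi-square per gene 1.96 to 2.02 over all genes), so these correlations could hardly show a pairing. With the replicate block 137 genes were called, and 2 genes of the rule, OGN and OMD, were higher.

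Enzymes of collagen synthesis had 1 gene called higher against WT replicate 1 alone (MIA3, at 0 counts there). Receptors and proteases had 0 to 2 called higher with 1 library left out, 1 lower without a filter and 2 lower against WT replicate 1 alone. Other matrix genes had 0 to 2 called higher with 1 library left out, and 3 lower without a filter, 2 with DESeq2 and 1 against WT replicate 1 alone.

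The mean KO share of collagens was 0.240%. It was 0.227% on TMM-scaled sizes, 0.270% with genes over 1% of a library left out of the total and 0.218% without COL12A1. That of the proteoglycans was 0.285%, and 0.268%, 0.320% and 0.120% in the same settings, the last without OGN. With 1 library left out the KO mean ranged from 0.237% to 0.243% for collagens and 0.280% to 0.288% for proteoglycans, and the WT mean from 0.223% to 0.784% and 0.0638% to 0.389%.

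Among the 12 genes named from the lists, no gene was called in the planned fit, and these fitted log2 values had the opposite sign. Without WT replicate 3 they were 0.61 for LOX, 0.17 for MIA3 and 0.99 for PLOD2. Without a filter they were 0.50 for PLOD2 and 0.014 for TIMP3, and with the block 0.068 for PLOD2. PLOD2 was 0.27 without KO replicate 2, and TIMP3 0.22 without WT replicate 1. With 1 library left out, the range was −2.07 to 0.61 for LOX, −1.40 to 0.17 for MIA3, −0.65 to 0.99 for PLOD2 and −0.999 to 0.22 for TIMP3. Against WT replicate 1 alone they were 7.46 for MIA3 (adjusted p 0.0204 in edgeR, and 0.0204 to 1.00 over alternatives), 1.88 for PLOD2 and 5.91 for LAMB1, where MIA3 and LAMB1 had 0 counts in the single WT library, so that these 2 values depend on the prior count and are no folds. The 0 allows up to 83.6 CPM, above the KO mean of 41.5 for LAMB1, whose direction is then undetermined. With the KO libraries summed they were 0.067 for MIA3, 0.90 for PLOD2, 0.18 for ITGB1, 0.59 for TIMP3, 0.094 for THBS1 and 0.044 for LAMB1. Depth limits 28 of the 45 genes, which had under 20 counts in every library.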
